A study of Mus musculus with 47 samples.

Results

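Complex I truncation was studied by comparing RNA of cultured m.11,944 60% cells with RNA of control cells. The samples were every culture of these 2 groups whose column in the deposited count table could be matched to its sample label, 4 cultures of each group, or 8 of the 47 samples of the series. The labels do not give the line number that heads the columns of m.11,944 60% cells, which was read from the study's source data. The cells are B78-D14, an amelanotic mouse melanoma line derived from B16 that lacks Cdkn2a. In m.11,944 60% cells a mitochondrially targeted TALE-DdCBE base editor, a pair of DNA-binding proteins each fused to a part of a cytosine deaminase, had changed G to A at position 11944 of the mitochondrial DNA (mtDNA) in about 60% of mtDNA copies (heteroplasmy), after up to 4 transfections in a row. Control cells were wild type at this position, and the cultures of both groups were untreated. Each genotype is 1 isogenic cell population, so the edit and any other difference between the 2 lines cannot be told apart. Neither the labels nor the methods say whether replicates were separate cultures or passages, so p values measure the spread between these samples.

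Complex I oxidizes NADH and passes its electrons to ubiquinone while pumping protons across the inner mitochondrial membrane. It is built from subunits encoded by mtDNA and by the nucleus, and Mt-Nd5 encodes one of its proton-pumping subunits. Cells that oxidize less NADH in mitochondria can pass electrons to pyruvate, giving lactate, and the malate-aspartate and glycerol phosphate shuttles link the cytosolic and mitochondrial NADH pools.

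The edited base is the middle base of codon 68 of Mt-Nd5 (GRCm39, chromosome M, gene 11742 to 13565, + strand). The stretch chrM:11913-11975 is shown because it carries the only designed difference between the groups, with the codon in capitals. The unedited codon reads Trp in the mitochondrial code, and G11944A, counted along the mitochondrial chromosome, turns it into a stop, which leaves 67 codons before it.
unedited: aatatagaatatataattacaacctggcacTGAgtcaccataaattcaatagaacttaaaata
edited: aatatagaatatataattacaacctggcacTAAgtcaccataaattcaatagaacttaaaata
The count table holds reads per gene and not per allele, so the share of edited transcripts was not analysed here.

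Between 25249060 and 35696719 reads were counted on genes in m.11,944 60% cultures and between 27901430 and 36173502 in control cultures. Counts of Cdkn2a were 0 in every culture. Of 8 melanocyte markers 5 were at or below 10 counts in every culture, among them Tyr, Dct and Sox10, while Mitf was counted 194 to 630 times. Ptprc, the pan-leukocyte gene, was at 1 count or less. Cultures numbered 1 and 2 differed from those numbered 3 and 4 in both groups: the first principal component held 73.8% of the variance and separated these replicate sets, and 8827 genes passed the threshold between them. Same-numbered cultures of the 2 groups deviated together from their group means (r of 0.718 to 0.832 across genes, and genes are no independent replicates), so the replicate number was used as a block and each comparison below is one between same-numbered cultures. What distinguishes the replicate sets is not given in the sources used here.

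**Figure D1:**
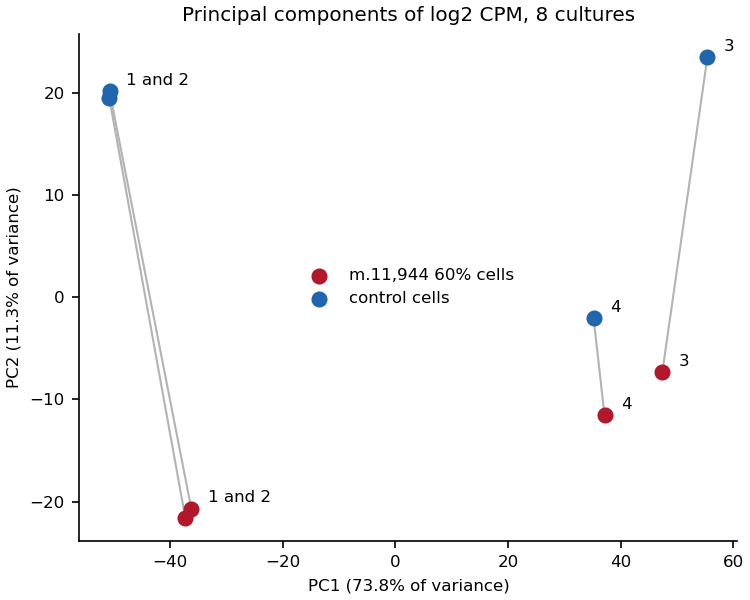
Principal components of the log2 CPM values of the 8 cultures, with the share of variance on each axis, m.11,944 60% cultures in red, control cultures in blue, grey lines joining same-numbered cultures and digits giving the replicate. Replicates 1 and 2 lie left and replicates 3 and 4 right in both groups, and in each pair the m.11,944 60% culture lies below its control on PC2 (11.3% of the variance).

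Levels below are in CPM, a gene's count scaled to a common library size with edgeR's TMM factors, and differences are log2 fold changes of m.11,944 60% over control cells, each with its standard error (SE). Adjusted p values are two-sided and come from edgeR's quasi-likelihood test with the block, adjusted by the Benjamini-Hochberg method over all 12930 genes tested. The threshold was an adjusted p under 0.1.

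Of the 12930 genes, 919 (7.11%) passed the threshold, 390 (3.02%) higher and 529 (4.09%) lower in m.11,944 60% cells. The median size of the difference was 0.44 on the log2 scale among genes that passed and 0.13 among all genes tested, and 121 of the 919 differed by more than 1, of which 33 were higher and 88 lower. How many genes pass depends on the pairs: 89 passed without replicate 1, 110 without replicate 2, 602 without replicate 3, 2092 without replicate 4 and 5 (0.0387%) without the block. The 5 were Il2rg, Pparg, Slc6a2, Trim30a and Marcks, all of which also passed with the block. Marcks, a membrane-bound substrate of protein kinase C, was named after its values were seen (log2 fold change without the block −1.41, edgeR adjusted p = 0.0492).

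A smaller set of 79 genes (0.611%), 16 higher and 63 lower, passed with all pairs and again when any 1 pair was left out. As the choice of these genes partly fixes their direction, size and separation, the values that follow only describe them. They differed in the same direction in all 4 pairs, by a median of 1.28 on the log2 scale, and in 41 of them the 4 cultures of one group did not overlap the 4 of the other, against 450 of all 12930 genes (3.48%). The pairs of replicates 1 and 2 and those of replicates 3 and 4 share no culture, and each was also fitted alone, where 6196 of 12990 genes (47.7%) passed in replicates 1 and 2 and 97 of 13136 (0.738%) in replicates 3 and 4. Of the 12580 genes tested in both, 6056 passed in replicates 1 and 2 and 93 in replicates 3 and 4. Of these 93, 87 (93.5%) had the same direction in replicates 1 and 2, where 60.5% of all genes tested did. In both sets 76 genes passed in the same direction, which is 81.7% of the calls of replicates 3 and 4 and 1.25% of those of replicates 1 and 2. The plot of the 2 replicate sets marks the 79 genes.

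**Figure D2:**
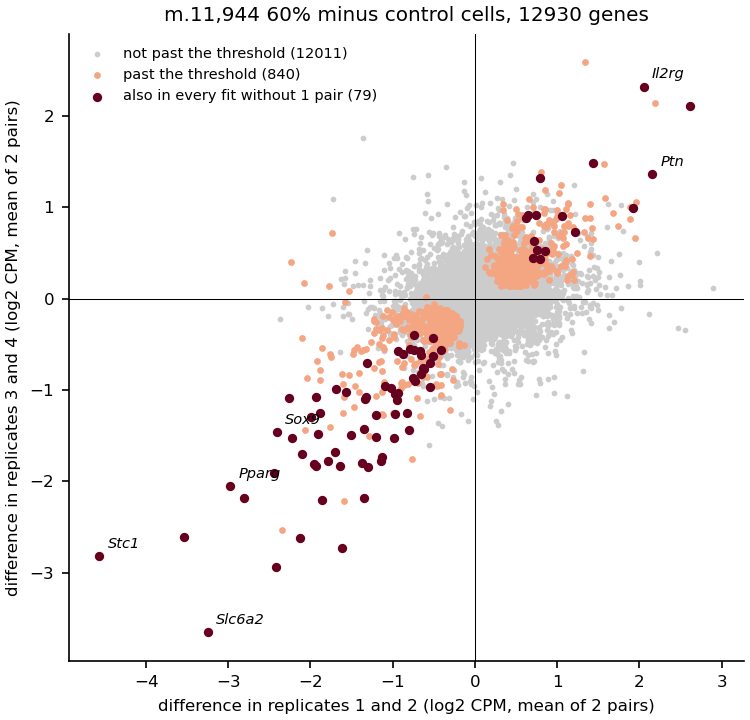
Difference between m.11,944 60% and control cells (log2 CPM, mean of 2 pairs) in replicates 1 and 2 (x axis) and in replicates 3 and 4 (y axis) for 12930 genes, grey where the gene did not pass the threshold, orange where it did and dark red where it also passed without any 1 pair (79 genes). The dark red genes lie in the lower left (63) and upper right (16) quadrants.

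Sox9 and Wnt7b were among the 10 largest falls of genes averaging 1 log2 CPM or more. Sox9, a transcription factor of the neural crest, stood at 5.69, 5.64, 5.29 and 8.29 CPM in m.11,944 60% replicates 1 to 4 and at 30.6, 30.1, 21.8 and 15.4 CPM in control replicates 1 to 4. Every m.11,944 60% culture was below every control culture, with replicate 4 the least apart. The log2 fold change of Sox9 was −1.93 (SE 0.24, edgeR adjusted p = 0.0119). Wnt7b, a secreted Wnt ligand, read 25.6, 23.3, 13.1 and 22.6 CPM in m.11,944 60% cultures and 108, 102, 62.4 and 50.1 CPM in control replicates 1 to 4. The groups did not overlap, and the gene fell by 1.90 on the log2 scale (SE 0.17, edgeR adjusted p = 0.00295). Wnt5a, a ligand of the Ror receptors known for invasive melanoma states, was at 8.08, 7.71, 4.57 and 4.35 CPM against 19.1, 17.4, 12.7 and 12.9 CPM. It also separated the groups and fell by 1.36 (SE 0.11, edgeR adjusted p = 0.000714). Wnt5b had 0.235, 0.489, 0.269 and 0.164 CPM against 1.72, 1.67, 0.455 and 0.204 CPM. Its fall of 1.65 (SE 0.38, edgeR adjusted p = 0.0553) was smallest in pair 4, where both cultures were low. Among the 23 tested genes of the Wnt list, those 3 ligands fell and the receptor Fzd1 rose by 0.69, while the list's median was 0.00 and 19 genes did not pass. Of all genes tested 7.11% passed, 3.02% higher and 4.09% lower, and the count of each list below is to be set beside these shares. The lists and their members were chosen with earlier results of these data known. An excess of a list over these shares can come partly from that choice and is no test. Cxxc4, an inhibitor of Wnt signalling that binds Dishevelled, is not on that list and rose by 0.98 (SE 0.16, edgeR adjusted p = 0.0171).

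Neural crest and dedifferentiation genes, the programmes that melanoma cells take up when they leave the melanocytic state, included 24 tested members, of which 7 (29.2%) passed, all lower, with a median of −0.26 against 0.01 over all genes. Besides Sox9 they included Nrg1, a ligand of the ErbB receptors (−1.79), the receptor Egfr (−0.81), the repressor Zeb2 (−0.52) and the AP-1 factors Fosl1 (−0.51) and Fosl2 (−0.46), all as log2 fold changes. Egfr was counted at 13.3, 12.9, 4.60 and 6.40 CPM in m.11,944 60% cells and 21.8, 22.3, 7.82 and 12.7 CPM in control cells, lower in each pair although the levels of the groups overlapped across replicate sets (edgeR adjusted p = 0.00383). Sox9 and Egfr passed without any 1 pair. Zeb2 and Fosl2 differed more in replicates 1 and 2 than in replicates 3 and 4 (tested below). The list's median was −0.41, −0.34, −0.12 and −0.04 in pairs 1 to 4. Of the 24, 6 passed with limma-voom and 6 with DESeq2, all lower. Of 23 melanocyte lineage and pigment genes only 9 had enough counts, and 1 of them, Mreg, a melanosome transport protein, rose by 0.65 (edgeR adjusted p = 0.0848).

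Tmem176a and Tmem176b, neighbouring membrane protein genes on chromosome 6, shared with Marcks the smallest adjusted p of all genes tested. Tmem176b was at 12.1, 11.1, 5.87 and 7.20 CPM in m.11,944 60% replicates 1 to 4 and 47.3, 41.8, 15.9 and 33.8 CPM in control replicates 1 to 4. Tmem176a was at 9.45, 9.03, 3.95 and 5.23 CPM and 31.7, 28.7, 10.6 and 20.2 CPM in the same order. Both separated the groups, with control replicate 3 the lowest control culture in each. The log2 fold changes were −1.90 (SE 0.12) and −1.71 (SE 0.11), with an edgeR adjusted p of 8.89e-05 for each, the value of Marcks too. The genes point away from each other, and their RefSeq promoter windows, 250 bases before to 50 after a start, share up to 219 bases (GRCm38.p6). Reads over any shared exonic bases cannot be told apart, since the strand setting of the counting was not stated.

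Slc6a2 and Slc6a4, whose products take up monoamines at the plasma membrane, were lower in m.11,944 60% cells. Slc6a2, the noradrenaline transporter, had 0, 0, 1 and 0 reads in m.11,944 60% replicates 1 to 4 and 15, 17, 36 and 29 reads in control replicates 1 to 4, in libraries of similar depth. With 1 read in all against 97, the control level was 93.1 times that of m.11,944 60% cells (exact binomial 95% interval 16.3 to 3710, for counting error only). Slc6a4, the serotonin transporter, had 0, 2, 4 and 8 reads against 14, 21, 40 and 30. The control level was 7.20 times higher (interval 4.11 to 13.6), and no m.11,944 60% culture reached a control culture in CPM. Both passed the threshold (edgeR adjusted p = 0.00150 and 0.00991) and did so with limma-voom, while DESeq2 gave neither an adjusted p. Of 14 genes on the list of monoamine and noradrenergic genes 5 were tested, and the vesicular transporter Slc18a2 (−0.12, adjusted p = 0.645) and Maoa (−0.09, adjusted p = 0.467) did not pass.

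**Figure D3:**
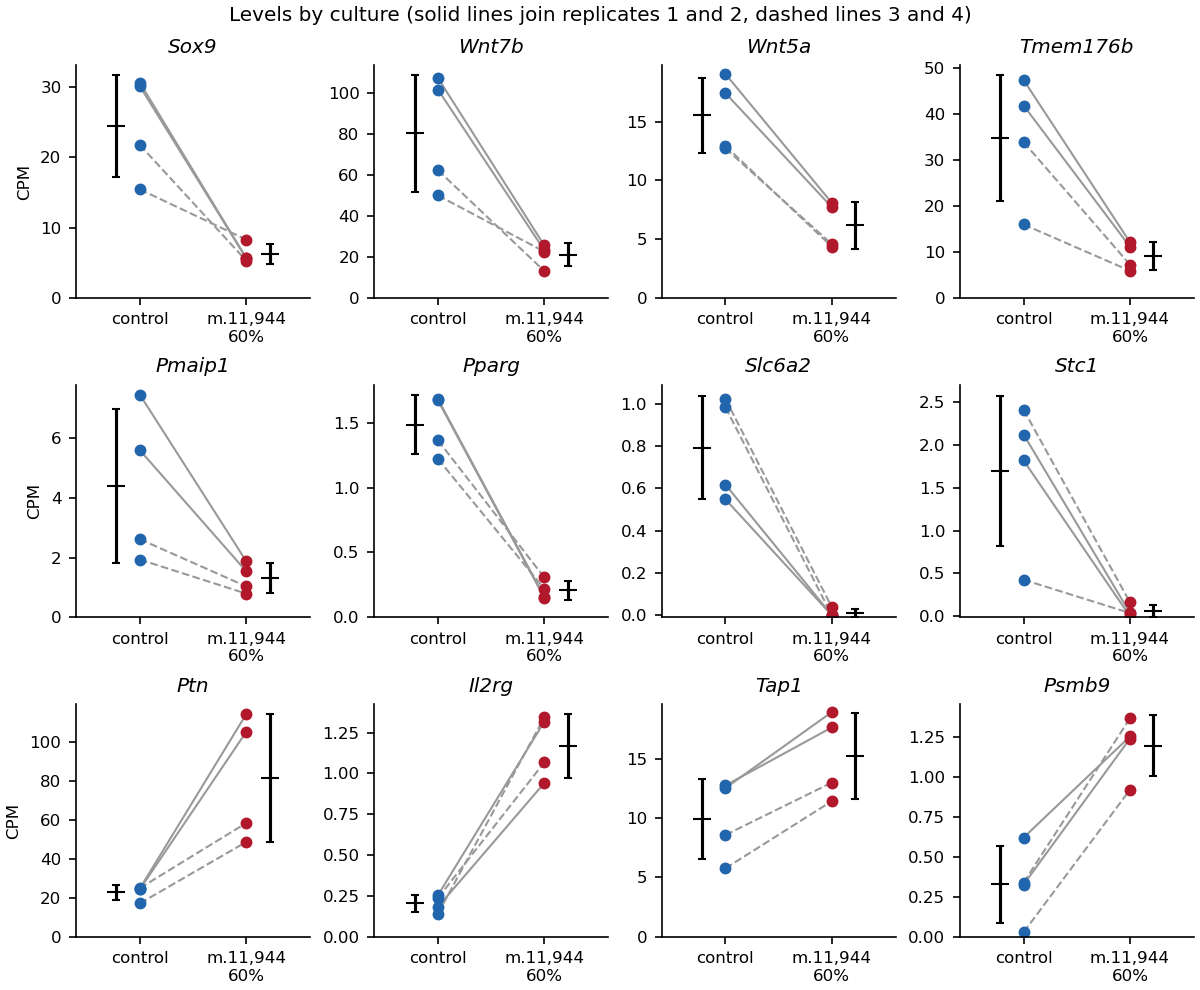
Levels in CPM (linear y axis from 0) of 12 genes the text describes, control cultures in blue and m.11,944 60% cultures in red, with lines joining same-numbered cultures (solid for replicates 1 and 2, dashed for 3 and 4) and black bars giving the mean and SD of each group (n = 4). The groups do not overlap for Sox9, Wnt7b, Wnt5a, Tmem176b, Pmaip1, Pparg, Slc6a2, Stc1, Ptn, Il2rg and Psmb9, and for Tap1 they overlap.

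Pparg, the nuclear receptor that drives fat storage genes, was counted 4, 4, 8 and 8 times in m.11,944 60% replicates 1 to 4 and 46, 46, 48 and 36 times in control replicates 1 to 4. The groups were far apart in each replicate set, and the log2 fold change was −2.78 (SE 0.30, edgeR adjusted p = 0.00239). Fabp5, a fatty acid carrier, read 6.67, 8.05, 11.7 and 11.1 CPM against 12.5, 13.2, 34.2 and 27.8 CPM. It fell by 1.15 (SE 0.14, edgeR adjusted p = 0.00383) without overlap. Plin2, which coats lipid droplets, fell by 0.22 (edgeR adjusted p = 0.0875), and the other 8 tested genes of the list of Pparg and its targets did not pass, Cpt1a among them with a log2 fold change of 0.57 (edgeR adjusted p = 0.114, but 0.00539 with DESeq2). The list's median was −0.05.

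Both stanniocalcin genes, which encode secreted glycoproteins, fell. Stc1 was at 0.0392, 0, 0.0384 and 0.164 CPM in m.11,944 60% replicates 1 to 4 and 2.12, 1.82, 0.426 and 2.41 CPM in control replicates 1 to 4, on 8 reads in all against 194. The control level was 23.3 times higher (exact binomial 95% interval 11.6 to 54.7, for counting error only; edgeR adjusted p = 0.00150), and control replicate 3 was the lowest control culture. Stc2 was at 3.88, 3.95, 0.307 and 1.20 CPM against 9.51, 11.1, 2.02 and 2.68 CPM, lower in each pair, with a log2 fold change of −1.49 (SE 0.20, edgeR adjusted p = 0.00750). Both are on the list of hypoxia targets, of which 20 were tested. Of the other members Kdm3a, a histone demethylase, rose by 0.35 (edgeR adjusted p = 0.0901) and 17 did not pass. Vegfa, the vascular growth factor, had a log2 fold change of −0.32 (edgeR adjusted p = 0.130, but past the threshold with DESeq2) and the glucose transporter Slc2a1 one of −0.38 (adjusted p = 0.149).

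Of 19 tested p53 targets 5 passed (26.3%, against 7.11% of all genes), all lower, and the median was −0.17. With DESeq2 7 passed, 6 lower and 1 higher. Pmaip1, which encodes the pro-apoptotic BH3 protein Noxa, stood at 1.88, 1.54, 1.04 and 0.794 CPM in m.11,944 60% replicates 1 to 4 and at 7.46, 5.60, 2.62 and 1.93 CPM in control replicates 1 to 4. The highest m.11,944 60% culture lay just below the lowest control culture, and the gene fell by 1.66 on the log2 scale (SE 0.18, edgeR adjusted p = 0.00254). Gadd45a, a DNA damage and stress gene, was at 226, 235, 3.03 and 13.4 CPM against 307, 306, 4.21 and 21.2 CPM. Its levels in replicates 1 and 2 were far above those in replicates 3 and 4 in both groups, and within each pair it was lower in m.11,944 60% cells, by 0.48 (SE 0.07, edgeR adjusted p = 0.0119). The cyclin-dependent kinase inhibitor Cdkn1a (−0.29), the BH3 gene Bbc3 (−0.31) and the receptor Eda2r (−0.43) fell less. Trp53i11, a p53-inducible gene that is not on the list, fell by 1.89 (SE 0.19, edgeR adjusted p = 0.00150).

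Integrated stress response genes, which the factor ATF4 raises when translation initiation is slowed, counted 26 tested members, of which 5 (19.2%) passed, all lower. The median was −0.16, but it was 0.00 and 0.04 in pairs 1 and 2 and −0.44 and −0.28 in pairs 3 and 4, and for 12 of the 26 the difference itself differed between the replicate sets (interaction test below). Ddit3, the stress factor CHOP, was at 86.6, 85.7, 3.91 and 6.65 CPM against 124, 119.4, 3.72 and 7.57 CPM. It fell by 0.34 (edgeR adjusted p = 0.0963), mostly in replicates 1 and 2. Gdf15, a secreted stress cytokine, fell by 1.63 (edgeR adjusted p = 0.0119), with CPM of 1.29, 1.47, 0 and 0.109 against 3.77, 5.05, 0.0569 and 0.237, near the detection limit in replicates 3 and 4. Atf3 (−0.65), Cebpb (−0.31) and the mitochondrial folate enzyme Aldh1l2 (−0.33) were the other 3. Chac1, a glutathione-degrading ATF4 target, read 63.0, 64.0, 1.84 and 23.5 CPM against 31.3, 33.6, 4.18 and 44.5 CPM. It was higher in pairs 1 and 2 and lower in pairs 3 and 4, and its log2 fold change over all pairs was 0.14 (adjusted p = 0.862).

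**Figure D4:**
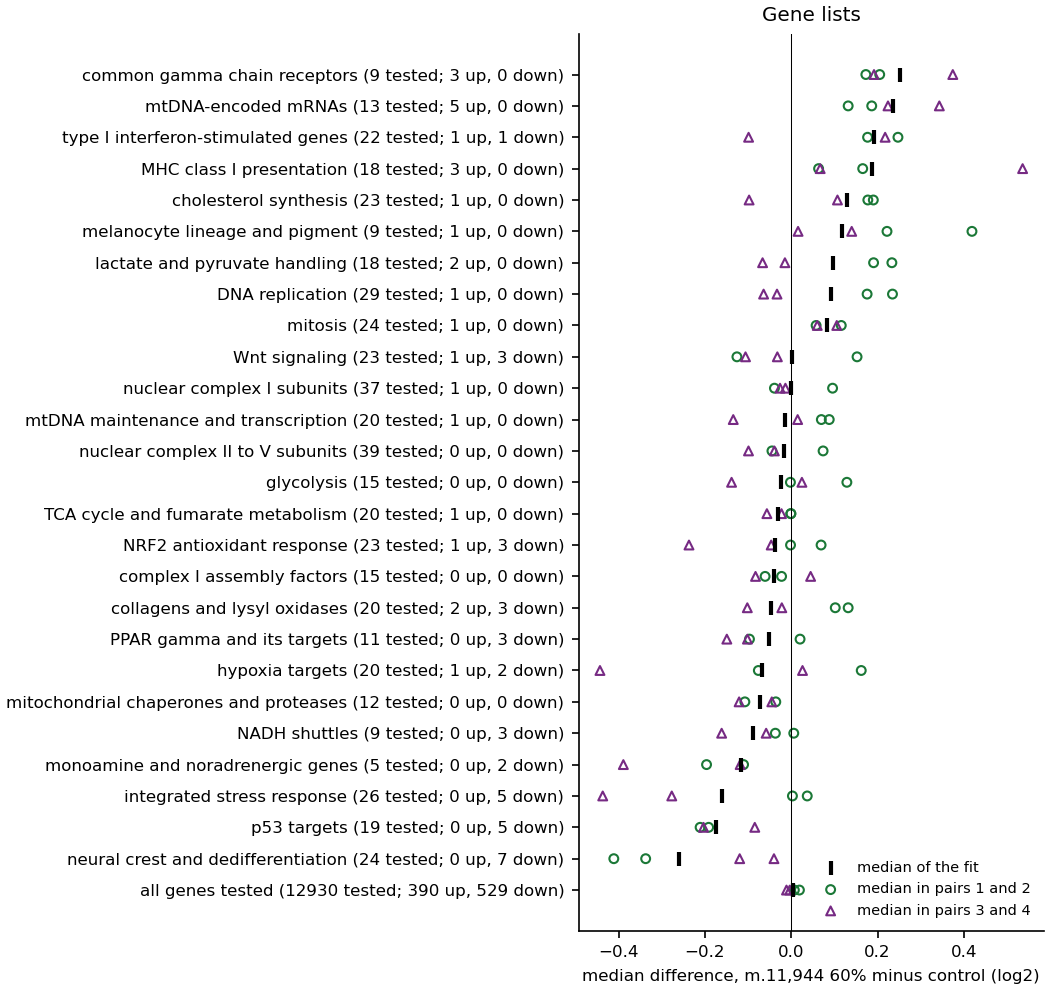
Median log2 difference between m.11,944 60% and control cells over the tested genes of each list, with the number tested and the number past the threshold in each direction beside its name: black bars give the median of the fit, green circles the medians in pairs 1 and 2 and violet triangles those in pairs 3 and 4. The medians of p53 targets and of neural crest genes lie below 0 in all 4 pairs and those of mtDNA-encoded mRNAs above 0, while the bottom row shows all 12930 genes near 0.

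Nuclear genes of the respiratory chain moved little, while its mtDNA-encoded mRNAs tended to be higher. All 13 mtDNA-encoded mRNAs had a log2 fold change above 0, 9 of them in all 4 pairs (14.0% of all genes tested did so). Past the threshold 5 rose (38.5%, against 3.02% of all genes), and the list median was 0.24. These 5 were mt-Nd1 (0.25), mt-Nd2 (0.23), mt-Nd4 (0.29), mt-Cytb (0.24) and mt-Co1 (0.30). The edited gene mt-Nd5 had 159, 178, 533 and 244 CPM against 134, 164, 423 and 225 CPM, higher in each pair, with a log2 fold change of 0.20 (SE 0.07, edgeR adjusted p = 0.117). The 13 mRNAs took 0.317%, 0.362%, 0.771% and 0.403% of all counts in m.11,944 60% cultures 1 to 4, against 0.269%, 0.298%, 0.553% and 0.338% in same-numbered control cultures. The log2 ratio of these shares was 0.31 ± 0.11 (SD over 4 pairs), and the exact two-sided sign-flip permutation test gave the smallest p that 4 pairs allow, which is above 0.05. As a share of the 13 mRNAs, mt-Nd5 differed by −0.06 ± 0.08 (log2, SD over 4 pairs; exact sign-flip permutation p = 0.25). mt-Atp6, mt-Atp8, mt-Co2, mt-Co3, mt-Nd3 and mt-Nd4l were each under 11 CPM in every culture, and their values are uncertain because reads that also match nuclear copies of mtDNA may not have been counted. Of 37 nuclear complex I subunits 1 rose, Ndufv3 (0.36, edgeR adjusted p = 0.0762), and the list's median was 0.00. Ndufb8, whose protein is read in blots of complex I, was at 78.7, 94.7, 82.2 and 103 CPM against 80.3, 82.4, 88.6 and 105 CPM, a log2 fold change of 0.01 (SE 0.07, adjusted p = 0.955). None of 15 complex I assembly factors and none of 39 nuclear subunits of complexes II to V passed. At an unadjusted p under 0.05 the edgeR counts were 1, 2 and 3 for these 3 lists, and limma-voom and DESeq2 gave 1, 0 and 0 past the threshold.

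Genes that move NADH between compartments showed 3 falls among 9 tested (33.3%, while 4.09% of all genes fell). Got1 and Got2, the cytosolic and mitochondrial aspartate aminotransferases of the malate-aspartate shuttle, fell by 0.29 (SE 0.07, edgeR adjusted p = 0.0510) and 0.23 (SE 0.06, edgeR adjusted p = 0.0775). Gpd2, the mitochondrial glycerol phosphate dehydrogenase, fell by 0.27 (SE 0.08, edgeR adjusted p = 0.0975). Got2 was at 418, 364, 372 and 355 CPM in m.11,944 60% replicates 1 to 4 and 475, 432, 424 and 434 CPM in control replicates 1 to 4, just apart. The malate dehydrogenases did not pass: Mdh1 had a log2 fold change of 0.04 (SE 0.07, adjusted p = 0.736) and Mdh2 one of −0.09 (SE 0.06, adjusted p = 0.427). The carriers Slc25a11 (0.23), Slc25a12 (−0.11) and Slc25a13 (0.05) and Gpd1l (0.14) did not pass either. None of the 3 falls passed in all 4 fits that leave out 1 pair.

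None of the 15 glycolysis genes tested passed in edgeR, 3 had an unadjusted p under 0.05, and the median was −0.02. With limma-voom and with DESeq2 1 of the 15 passed, Eno2 and Slc2a1 respectively, both lower. Eno2, an enolase, had the lowest log2 fold change of the list (−0.73, adjusted p = 0.175) and opposite signs in the replicate sets, at 4.67, 6.17, 1.30 and 2.49 CPM against 12.1, 14.2, 1.05 and 2.31 CPM. Of 18 genes of lactate and pyruvate handling 2 rose. Pdk4, a kinase that switches off pyruvate dehydrogenase, was at 12.9, 11.6, 8.13 and 7.09 CPM against 6.98, 6.65, 5.09 and 5.73 CPM, and the groups did not overlap (log2 fold change 0.67, SE 0.13, edgeR adjusted p = 0.0318). Pcx, the carboxylase that makes oxaloacetate from pyruvate, rose by 0.58 (SE 0.12, edgeR adjusted p = 0.0458), with replicate 4 the least changed (25.3 against 24.1 CPM). Among 20 TCA cycle genes only Idh1, the cytosolic NADP-dependent isocitrate dehydrogenase, rose (0.60, edgeR adjusted p = 0.0591), and its replicate 4 cultures were level at 107 and 105 CPM.

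Rises of more than 1 on the log2 scale were fewer than falls of that size, as counted above. Ptn, the heparin-binding growth factor pleiotrophin, was at 105, 114, 48.6 and 58.3 CPM in m.11,944 60% replicates 1 to 4 and 24.4, 24.7, 17.1 and 24.9 CPM in control replicates 1 to 4. Control cultures kept to a narrow range, while m.11,944 60% replicates 1 and 2 were higher than 3 and 4. The log2 fold change of Ptn was 1.76 (SE 0.16, edgeR adjusted p = 0.00254), and it was larger in replicates 1 and 2 (2.16) than in 3 and 4 (1.37; interaction adjusted p = 0.00572). C1rl, a protease related to complement C1r, rose by 1.06 (edgeR adjusted p = 0.0991), with replicate 4 level at 9.28 and 9.16 CPM. Npy4r, a receptor of pancreatic polypeptide (1.35), Naip2, an inflammasome sensor (1.08), Egfl7, a secreted vascular factor (1.02), the ciliary transcription factor Rfx2 (0.99), the cation channel Trpm4 (0.98) and Rasgrp3, an exchange factor of Ras (0.97), also rose (all as log2 fold changes). Of the 10 largest falls among genes averaging 1 log2 CPM or more, the remaining 3 were Mmp3, a matrix protease (−1.64), Hes1, a repressor downstream of Notch (−1.51), and Prkar1b, a regulatory subunit of protein kinase A (−1.45).

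Il2rg, the receptor chain shared by the interleukin 2 family, was counted 24, 35, 35 and 39 times in m.11,944 60% replicates 1 to 4 and 5, 7, 5 and 7 times in control replicates 1 to 4. Each m.11,944 60% culture was above every control culture, and the log2 fold change was 2.51 (SE 0.29, edgeR adjusted p = 0.00350). Of 9 tested genes of the list of gamma chain receptors and their signal transducers, Stat5a (0.45, edgeR adjusted p = 0.0849) and Stat5b (0.25, edgeR adjusted p = 0.0935) also rose. The partner receptors Il4ra (0.28, adjusted p = 0.123) and Il2rb (−0.27, adjusted p = 0.775) did not pass. Lyz2, a lysozyme of myeloid cells, rose at 20 to 65 reads per culture (1.16, edgeR adjusted p = 0.0447), while of the 8 leukocyte markers 6 were at or below 10 counts in every culture, and the summed level of all 8 was 3.04 to 4.60 CPM in m.11,944 60% cells and 2.27 to 3.02 CPM in control cells. Cd3e and Itgam were at 0 in every culture. In bulk RNA, fewer cells with a transcript and less of it per cell cannot be told apart.

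Of 18 tested genes of MHC class I presentation 3 passed (16.7%), all higher, with a median of 0.19 and pair medians of 0.06, 0.17, 0.54 and 0.07. Tap1, which carries peptides into the endoplasmic reticulum, was at 18.9, 17.6, 11.4 and 13 CPM in m.11,944 60% replicates 1 to 4 and 12.5, 12.8, 5.77 and 8.58 CPM in control replicates 1 to 4, higher in each pair (log2 fold change 0.65, SE 0.11, edgeR adjusted p = 0.0184). Psmb9, a subunit of the immunoproteasome, had 32, 33, 24 and 50 reads against 17, 9, 1 and 10 reads, with only 1 in control replicate 3 (log2 fold change 1.95, SE 0.39, edgeR adjusted p = 0.0386). Tapbpl, a peptide editor, rose by 0.59 (edgeR adjusted p = 0.0597). The class I heavy chain H2-D1 did not pass (0.33, edgeR adjusted p = 0.115) but did with DESeq2, which called 5 of the 18. Tapbpl lies on chromosome 6 and H2-D1 on chromosome 17, and both chromosomes had medians above 0 (given below). Tap1 and Psmb9 are transcribed away from each other from one short stretch of chromosome 17, and their RefSeq promoter windows share 275 of 300 bases (GRCm38.p6). The Psmb9 window, chr17:34187281-34187580 on the − strand, is shown because it lies between 2 genes that both rose, with capitals marking GGGCGG, the GC box of Sp1 factors.
Psmb9: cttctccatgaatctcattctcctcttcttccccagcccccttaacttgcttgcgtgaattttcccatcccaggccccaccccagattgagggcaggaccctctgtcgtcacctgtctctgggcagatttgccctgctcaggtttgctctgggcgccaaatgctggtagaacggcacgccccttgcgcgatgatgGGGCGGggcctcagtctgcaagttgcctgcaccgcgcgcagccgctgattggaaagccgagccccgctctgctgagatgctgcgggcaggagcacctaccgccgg
Searched on both strands, GGGCGG was found once in this window and in 35.7% of 32851 RefSeq promoter windows of the same length. The letters TTCNNNGAA, the core to which STAT dimers bind, were in 8.3% of windows and not in those of Psmb9 and Tap1.

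Of 39 interferon-stimulated genes 22 had enough counts, and 2 of these passed (9.1%, against 7.11% of all genes). Usp18, which removes the ubiquitin-like protein Isg15, rose by 1.47 (SE 0.29, edgeR adjusted p = 0.0363) and Trim30a, an interferon-inducible ubiquitin ligase, fell by 1.84 (SE 0.20, edgeR adjusted p = 0.00239). Trim30a was at 0.745, 0.715, 0.499 and 0.547 CPM against 2.71, 2.18, 1.85 and 2.24 CPM, without overlap. Trim30a has close paralogues, between which the counting could split reads. Of these Trim30d, named after its values were seen, fell too (−2.17, SE 0.33, edgeR adjusted p = 0.014). Stat2 (0.38, adjusted p = 0.158) did not pass. The list's median was 0.19, and −0.10 in pair 4.

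For some genes the difference between the groups depended on the replicate set. An interaction of group with replicate set, tested with the block, passed for 1000 of the 12930 genes (7.73%), and the difference was higher in replicates 3 and 4 for 451 of them and lower for 549. In 665 of the 1000 the replicate sets had opposite signs, and 90 of the 1000 were among the 919, 1 of them with opposite signs in the replicate sets. Ptgs2, the inducible prostaglandin synthase, was at 388, 366, 101 and 87.3 CPM in m.11,944 60% replicates 1 to 4 and 1312, 1289, 122 and 94.6 CPM in control replicates 1 to 4. The gap lay in replicates 1 and 2 (−1.79) and was small in 3 and 4 (−0.19; interaction 1.59, SE 0.11, edgeR adjusted p = 1.03e-05). Jun, an AP-1 factor (−1.28 and −0.09), and Pvr, the poliovirus receptor (−1.35 and −0.02), had larger falls in replicates 1 and 2 than in 3 and 4 as well. The cytokine Il11 fell in replicates 1 and 2 (−1.58) and did not fall in 3 and 4 (0.31). The edgeR interaction adjusted p was 0.000217 for each of these 3 genes. Chac1 (0.97 and −1.0) and Zfp207, a kinetochore protein (0.91 and −0.16), went the other way. Each replicate set holds 2 pairs, replicates 1 and 2 lay close together, and 78 genes passed this test without replicate 1, 53 without replicate 2, 3099 without replicate 3 and 3476 without replicate 4. On simulated data 25.6% of the calls of this test were false.

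Differences were uneven across chromosomes. On chromosome 16 the 401 genes tested had a median of −0.13, and on chromosome 8 the 711 genes tested had a median of −0.08, while the medians of chromosomes other than 6, 8, 16 and 17 lay between −0.02 and 0.03. The chromosome 16 median was −0.11, −0.13, −0.17 and −0.13 in pairs 1 to 4, and that of chromosome 8 was −0.08, −0.10, −0.10 and −0.09. Lower calls made up 15.7% of the genes tested on chromosome 16 and 12.2% on chromosome 8, against 4.09% of all genes. All 4 segments of each chromosome, cut by gene number, had medians below 0, from −0.10 to −0.18 on chromosome 16 and from −0.05 to −0.12 on chromosome 8. Of the named falls Hes1, Cxadr, an adhesion receptor (−1.24), the inositol transporter Slc5a3 (−0.63) and the adhesion molecule Alcam (−0.62) lie on chromosome 16. Abcc1 (−0.32) and Il1rap (−0.63), described below, lie there too. Slc6a2, Gdf15, Nrg1, Got2, Cyba, a subunit of the NADPH oxidase (−0.75), and Sipa1l2 (−0.66) lie on chromosome 8. Chromosomes 6 and 17 had medians of 0.06 each. On chromosome 6 these were 0.10 in the first 2 segments and 0.03 and 0.00 in the others. Higher calls made up 6.16% of the genes tested on chromosome 6 and 4.72% on chromosome 17, against 3.02% of all genes. The named rises C1rl, Kdm3a, Pdk4, Ptn, Tapbpl and Usp18 lie on chromosome 6, as do the falls Gadd45a, Pparg, Tmem176a, Tmem176b and Wnt5b. Ndufv3, Psmb9, Rasgrp3, Rfx2, Tap1 and Tfb1m, which rose, and Cdkn1a, which fell, lie on chromosome 17. Outside chromosomes 8 and 16, 380 genes were higher and 379 lower among those past the threshold. DNA copy number was not analysed here, and whether it differs between the lines was not tested.

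**Figure D5:**
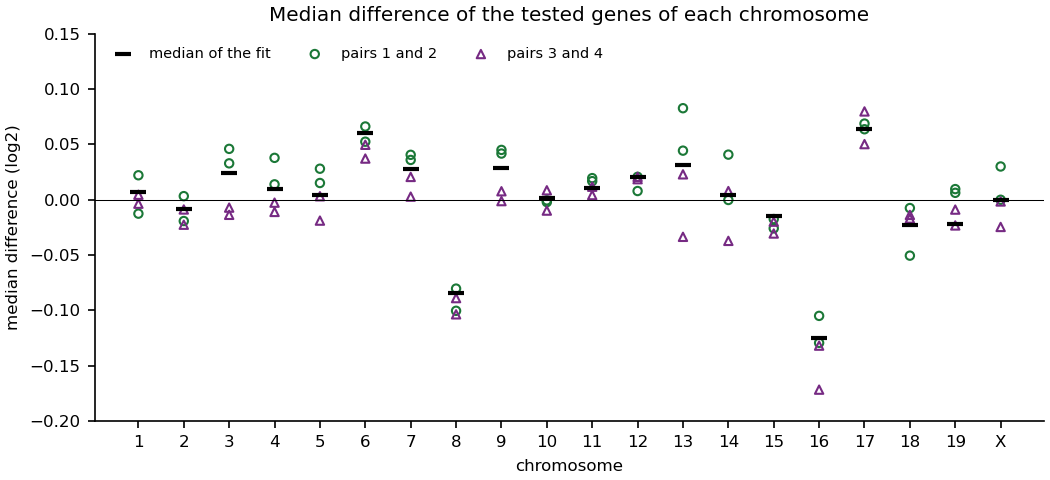
Median log2 difference between m.11,944 60% and control cells over the tested genes of each chromosome (x axis), with black bars for the fit, green circles for pairs 1 and 2 and violet triangles for pairs 3 and 4. Chromosomes 8 and 16 lie below 0 and chromosomes 6 and 17 above 0 in all 4 pairs.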

How the data were processed

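Frozen cell pellets were sent to GeneWiz for RNA extraction and sequencing. The authors used STAR with GRCm39 and featureCounts, and the deposited values are raw counts of reads per gene for 56748 genes in 47 columns. The strand setting is not given in the sources used here. The 4 columns of m.11,944 60% cells carry a line number that GEO's labels do not give, which was matched through a heading of the study's source data that pairs it with the 11,944 60% line. The 4 control columns were matched by name and numbering, and 39 other columns of values were not used. GENCODE's GRCm39 annotation named 56017 of the genes.

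Counts were fitted in R 4.3.3 with edgeR 4.0.16: TMM scaling, genes kept by filterByExpr, a robust quasi-likelihood test of group with the replicate number as a block, and Benjamini-Hochberg adjustment, with the study's threshold of 0.1. The pairing rests on the data: deviations of same-numbered cultures correlated at r of 0.718 to 0.832, and other-numbered cultures of the same replicate set (1 and 2, or 3 and 4) at 0.594 to 0.810. Cultures 1 and 2 of a group differed by 9.11 (m.11,944 60%) and 12.7 (control) times the sampling noise (chi-square per degree of freedom). They were thus not 1 library sequenced again. Cultures 3 and 4 differed by 25.1 (m.11,944 60%) and 45.1 (control) times. Whether cultures 1 and 2 were grown separately cannot be told from these values, since repeat libraries of 1 culture could differ as well. SEs were taken from the log2 fold change and the F statistic. Differences per pair used log2 CPM with a prior count of 2. Alternatives were limma-voom 3.58.1, DESeq2 1.42.0, DESeq2's size factors, TMM without chromosomes 8 and 16, no filter, at least 10 counts in every culture, a threshold of 0.05, no block, the replicate set as covariate, each set alone and each pair left out.

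On simulated data of this depth with 200 changed genes, the test with the block found 100% of changes of 1 and 77% of changes of 0.5 on the log2 scale, with 11.5% of its calls false, and the test without the block found 39% and 2%. The interaction test found 78% and 12%. The simulated counts were drawn around the mean of each replicate number over both groups, with the spread of the fit with the block. The block was thus built into them, and the contrast does not test whether the real cultures need it.

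Genes were named if they were the edited gene, among the 10 largest rises or falls past the threshold (only genes averaging 1 log2 CPM or more, with 1 direction in all pairs), among the 4 smallest p values of a list or past the threshold in it, among the 3 smallest p values of chromosomes 8 and 16 or the 6 of the interaction, or named by the study for these cells. Members of the mtDNA-encoded, NADH shuttle and gamma chain lists were all kept. The members and lists were chosen with earlier results of these data known. Promoters were read from RefSeq (GRCm38.p6), whose table lacks some of the 165 named genes. A few named genes are not reported here.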

Additional observations from a re-analysis of the deposited data

Results flagged for a closer look

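In groups of 4 cultures, 1 culture stood apart by Dixon's test for 16 of 326 values tested, and chance flags about 1 in 20 groups. In m.11,944 60% cells the highest culture stood apart for C1rl (12.97 CPM), Il15ra (2.93), Ndufa11 (55.1), Nrg1 (0.328), P4ha3 (35.5), Slc6a2 (0.0384, which is 1 read), Sox9 (8.29) and mt-Nd4 (380), and the lowest for Cox8a (145). In control cells the highest stood apart for Idh2 (224 CPM), Loxl2 (13.3) and Msmo1 (59.3), and the lowest for Col3a1 (546), Dguok (11.8), Pdgfra (11.9) and Ptn (17.1).

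The difference between the groups itself differed between replicates 1 and 2 and replicates 3 and 4 for 1000 genes in edgeR's interaction test, 22 of them among the named genes reported here. As the log2 difference in replicates 3 and 4 minus that in replicates 1 and 2, it was higher for Atf3 (0.65), Eno2 (1.47), Fosl2 (0.51), Il11 (1.88), Il2rb (3.22), Jun (1.19), Krt18 (0.63), Mitf (0.61), Ptgs2 (1.59), Pvr (1.32), Slc2a1 (0.59), Sqstm1 (0.42) and Zeb2 (0.72). It was lower for Chac1 (−1.95), Cpt1a (−0.78), Egfl7 (−0.80), Fabp5 (−0.64), Kdm3a (−0.42), P4ha3 (−0.89), Ptn (−0.80), Vegfa (−0.49) and Zfp207 (−1.07). What distinguishes the replicate sets was not tested.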

How the results depend on the processing

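With the replicate block, limma-voom gave 882 genes past the threshold and DESeq2 1022, of which 843 and 814 were among the 919. DESeq2's size factors gave 902, TMM without chromosomes 8 and 16 957 and a minimum of 10 counts 833. The count moved by over 1.5 times with no replicate block (5), with no filter (1992), at a threshold of 0.05 (262), with the replicate set in place of the replicate number (494), in replicates 1 and 2 alone (6196) and in replicates 3 and 4 alone (97), and from 89 to 2092 when each pair was left out. The interaction count of 1000 moved to 42 with no replicate block, 429 with DESeq2 and 501 at a threshold of 0.05, and from 53 to 3476 when each pair was left out. Leaving out a pair leaves fewer cultures, and beyond that the causes were not tested. The ratio of shares of mtDNA-encoded mRNAs (0.31) was 0.26 to 0.34 when each pair was left out and that of mt-Nd5 among them (−0.06) was −0.10 to −0.04. Without pairing, neither value changes, only its test.

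Of the 919 genes, 1 turned its sign in replicates 3 and 4 alone and none under the other alternatives. Among named genes the sign turned for the values below, given with some of the list medians that turned. No gene among them had passed with all pairs. In replicates 3 and 4 alone they were Chac1 (−1.0), Eno2 (0.20), Il11 (0.31), Il15ra (0.18), Krt18 (0.12), Ndufb8 (−0.0610), Pax3 (0.10), Tpi1 (−0.0119), Zfp207 (−0.16) and mt-Co3 (−0.0139). In replicates 1 and 2 alone they were Cd68 (−0.21), Col1a1 (0.37), Slc25a12 (0.0190) and the medians of the NADH shuttle (0.0183) and TCA cycle (0.0073) lists. Medians by pair turned against the fit for further lists. In pairs 1 and 2 these were integrated stress response (0.003 and 0.04, fit −0.16), collagens and lysyl oxidases (0.10 and 0.13, fit −0.05) and mtDNA maintenance (0.07 and 0.09, fit −0.01). In pairs 3 and 4 these were DNA replication (−0.06 and −0.03, fit 0.09) and lactate and pyruvate handling (−0.01 and −0.07, fit 0.10). With DESeq2 the sign turned for Chac1 (−0.0287). With each pair left out, the sign turned within the ranges of Cd68 (−0.12 to 0.17), Chac1 (−0.24 to 0.58), Col1a1 (−0.40 to 0.13), Il15ra (−0.24 to 0.11), Ndufb8 (−0.0526 to 0.0425) and Pax3 (−0.16 to 0.0687). Of the 85 named genes past the threshold 81 lost it with no replicate block, 54 in replicates 3 and 4 alone and 30 with the replicate set in place of the number. It was lost by 36 at 0.05, by 50, 47, 26 and 4 without replicates 1 to 4, and by 2 to 5 with other tools, scalings or a minimum of 10 counts. Genes that have no value under a setting are not among those counted as lost. A minimum of 10 counts removes Slc6a2, Slc6a4, Stc1, Pparg and Il2rg among others, and DESeq2 gave Slc6a2 and Slc6a4 no adjusted p. Of list members, limma-voom did not call Gpd2, Kdm3a, Fzd1 and Tm7sf2, and it called 6 neural crest genes where edgeR called 7. DESeq2 also called Atf4, Trib3, Txnrd1, Mdm2, Sesn1, Vegfa, Cpt1a, Tapbp, H2-D1, Col1a2, Col4a2 and Loxl4. Genes of a few reads per culture, such as Slc6a2 and Stc1, have sizes limited by depth.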

Other observations

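Extracellular matrix genes moved in both directions. Of 20 tested collagen and lysyl oxidase genes 2 rose and 3 fell. Col6a1 (−0.48) and Col6a2 (−0.83, SE 0.16, edgeR adjusted p = 0.0397), which encode 2 chains of collagen VI, fell, as did Loxl2, a collagen cross-linking enzyme (−1.15, SE 0.16, edgeR adjusted p = 0.00872). Loxl2 was at 3.80, 3.80, 3.64 and 4.08 CPM in m.11,944 60% replicates 1 to 4 and 7.57, 7.42, 6.57 and 13.3 CPM in control replicates 1 to 4, without overlap. Col3a1 (0.48, edgeR adjusted p = 0.0790) and the prolyl hydroxylase P4ha3 (0.67, edgeR adjusted p = 0.0848) rose. Col3a1 was lower in m.11,944 60% cells in pair 4 (1485 against 1526 CPM) and control replicate 3 was low (546 CPM).

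Of 24 mitosis genes tested, 10 were higher in all 4 pairs against 14.0% of all genes, with a median of 0.08, and 1 passed. That was Mki67, the proliferation marker Ki-67, at 88.2, 139, 361 and 379 CPM against 63.6, 125, 279 and 294 CPM (log2 fold change 0.34, SE 0.07, edgeR adjusted p = 0.0398). Among 29 DNA replication genes the ligase Lig1 rose (0.29, edgeR adjusted p = 0.0848), and the pair medians were 0.18, 0.23, −0.06 and −0.03. Of 23 cholesterol synthesis genes the reductase Tm7sf2 rose (0.63, edgeR adjusted p = 0.0992), but not with limma-voom or DESeq2, and the median was 0.13. Among 23 NRF2 antioxidant genes the glutathione transferase Gsta4 rose (0.65, edgeR adjusted p = 0.0261), while Srxn1 (−0.28), Sqstm1 (−0.38) and the exporter Abcc1 (−0.32) fell. Of 20 genes of mtDNA maintenance and transcription 1 rose, Tfb1m, a ribosomal RNA methyltransferase (0.35, edgeR adjusted p = 0.0982), while with DESeq2 Tfb1m did not pass and Nrf1, a transcription factor of respiratory genes, was lower. None of 12 mitochondrial chaperones and proteases passed in edgeR or limma-voom, 4 had an unadjusted edgeR p under 0.05, and 1, Hspa9, passed in DESeq2.

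Of the 79 genes that passed without any 1 pair, 47 lie outside the rule for named genes, and the following were picked after their values were seen. Inhba (−1.93, SE 0.26, edgeR adjusted p = 0.00783) and Inhbb (−1.29, SE 0.17, edgeR adjusted p = 0.00784), the subunits of activins, both fell. Il33, an alarmin cytokine (−1.86), Osmr, the oncostatin M receptor (−1.49), and Il1rap, the shared receptor chain of interleukins 1 and 33 (−0.63), fell as well. The integrin genes Itga1 (0.68) and Itga7 (0.57) and the semaphorin and VEGF coreceptor Nrp1 (0.59) rose. Lbx1, a homeobox factor, had the largest rise of the 79 (2.60, SE 0.33, edgeR adjusted p = 0.00542).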
